A study of Homo sapiens with 8 samples.

Results

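Transcript levels of 9 genes of blood clotting and clot lysis were measured in hCMEC/D3, immortalised endothelial cells from human brain microvessels that serve to model the blood-brain barrier in culture. The 9 genes were chosen by symbol from the 23346 genes of the table: the clotting initiator F3, the inhibitors TFPI and TFPI2, the adhesive protein gene VWF, the protein C pathway receptors THBD and PROCR, the plasminogen activators PLAT and PLAU, and the urokinase receptor PLAUR. Polyadenylated RNA of 8 replicate samples was sequenced, with 69388544 to 90205244 counts per library. All 8 replicates formed 1 group of the same line, with no treatment, time point or genotype named for any of them, so no condition was compared with another. The line is kept growing by introduced immortalising genes, and nothing stated whether the 8 replicates came from separate cultures. P-values therefore measure only the spread between these samples, which may be technical.

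Clotting starts when tissue factor, the product of F3, binds factor VIIa at a cell surface and activates factor X. TFPI blocks that complex, and thrombin that still forms is captured on the endothelium by thrombomodulin, the product of THBD, which turns it into an activator of protein C; the endothelial protein C receptor, the product of PROCR, presents protein C for this step. Clots are dissolved by plasmin, which tissue-type (PLAT) and urokinase-type (PLAU) plasminogen activators make from plasminogen. Resting endothelium is known for low tissue factor, and the von Willebrand factor encoded by VWF is stored in endothelial granules and carries factor VIII.

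The endothelial label was checked against marker genes. All 8 of 8 endothelial markers (CDH5, PECAM1, TEK, TIE1, KDR, ERG, CLDN5 and ESAM) were detected, which here means at least 1 CPM in all 8 libraries, where CPM are counts scaled to library size, with edgeR. Their summed level was 1601 to 2646 CPM per library. None of the 4 hepatocyte markers and none of the 5 megakaryocyte and platelet markers was detected, with summed levels of 0.441 to 1.07 and 1.54 to 3.44 CPM. Astrocyte, microglia and epithelial markers were detected at 0 of 4 each, and their summed levels reached at most 1.04, 1.32 and 2.04 CPM. Of 6 mural cell markers, 3 were detected (PDGFRB, RGS5 and ACTA2), with summed levels of 22.6 to 36.5 CPM. Libraries also differed along transcript length. The length slope of a library, the slope of its gene-wise log2 deviations on log2 transcript length, was 0.09 to 0.15 in replicates 1, 3, 4, 5 and 6. It was -0.11 in replicate 7, -0.22 in replicate 2 and -0.34 in replicate 8, so that long transcripts read lower in these 3 libraries. Fewer cells that transcribe a gene and less RNA per cell cannot be told apart in such bulk libraries.

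All 9 genes were detected. Scaled to the length of the canonical transcript as RPKM (CPM per kilobase), TFPI, PROCR and VWF were the highest at means of 75.5, 70.5 and 67.998 RPKM. PLAUR, PLAU, THBD and PLAT followed at 52.5, 39.2, 33.2 and 28.2 RPKM. TFPI2 lay lower at 8.48 RPKM, and F3, the initiator of clotting, was the lowest of the 9 at 1.55 RPKM. Only part of this order was larger than the spread between libraries. TFPI exceeded PROCR in 5 of 8 libraries, PROCR exceeded VWF in 4, VWF exceeded PLAUR in 5, PLAU exceeded THBD in 6 and THBD exceeded PLAT in 6. The steps from PLAUR to PLAU, from PLAT to TFPI2 and from TFPI2 to F3 went the same way in 8 of 8 libraries. Canonical lengths decided part of the order. With the merged exons of all transcripts as length, TFPI moved from the first to the fifth place (24.9 RPKM) and VWF came first (57.8 RPKM), while F3, TFPI2 and PLAT kept the 3 lowest places. The same 3 genes were also lowest on the authors' CQN-normalised values, which adjust for length and GC content. Whether these values are per kilobase between genes is not known. PROCR against VWF averaged 0.10 on log2 RPKM and -1.42 on CQN-normalised values.

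**Figure D1:**
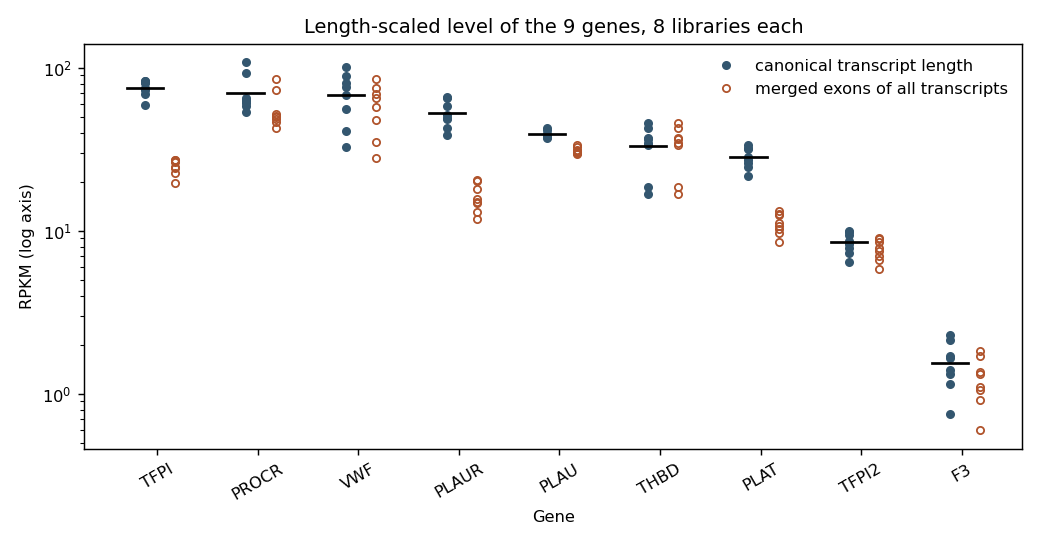
RPKM on a log axis for the 9 genes, in order of their mean. Points are the 8 libraries and bars are means; filled points use the canonical transcript length and open points the merged exons of all transcripts. F3 stands below all others with either length.

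F3, which encodes tissue factor (chromosome 1, 94994732 to 95007413, minus strand, 6 exons), had 1.73, 3.50 and 5.29 CPM as its lowest, median and highest value, and a mean of 3.57 ± 1.17 CPM (SD, n = 8). Replicate 5 was the highest and replicate 8 the lowest, a 3.06-fold range. At this low level counting error was visible. The 73 read pairs of replicate 8 gave a 95% Wilson interval of 1.37 to 2.17 CPM, and the 204 read pairs of replicate 5 gave 4.61 to 6.06 CPM, so these intervals did not meet. They cover counting error only. TFPI (chromosome 2, 188328958 to 188419219, minus strand, 8 exons), the inhibitor of the tissue factor complex, had 229, 299.7 and 321 CPM, with a mean of 291 ± 32.0 CPM (SD, n = 8). Its level was low in replicate 7 and within 265 to 321 CPM in the other libraries. Within libraries F3 lay below TFPI in 8 of 8, by a log2 ratio of RPKM of -5.63 ± 0.62, that is 49.4-fold (two-sided exact permutation test that flips signs over libraries, p = 0.00781, adjusted over 6 gene pairs 0.00781, n = 8). This is the smallest p-value that 8 libraries allow. With merged exon lengths the difference was 20.5-fold, also in 8 of 8 libraries.

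TFPI2 (chromosome 7, 93515745 to 93520065, minus strand, 5 exons), a related inhibitor that acts on plasmin and other matrix-associated proteases, had 14.3, 18.7 and 22.0 CPM. Replicate 1 was its lowest library and replicates 2, 7 and 8 its highest. TFPI exceeded TFPI2 by a log2 ratio of RPKM of 3.15 ± 0.31, or 8.89-fold, in 8 of 8 libraries (same exact permutation test, p = 0.00781 and adjusted p = 0.00781, n = 8). Merged exons gave an excess that was 3.24-fold.

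The start regions of F3 and TFPI are shown because these genes are the initiator and its inhibitor, and those of TFPI2 and PLAUR because they share a motif with F3. RefSeq (GRCh38.p14) gave start regions for 6 of the 9 genes: F3, TFPI, TFPI2, PROCR, PLAU and PLAUR. Entries for VWF, THBD and PLAT were not used here. The 250 bases before each start site are printed 5′ to 3′, and capitals mark matches to TGANTCA, the consensus of the AP-1 factors, which reads the same on both strands.

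F3 at chr1:94541760-94542009, minus strand: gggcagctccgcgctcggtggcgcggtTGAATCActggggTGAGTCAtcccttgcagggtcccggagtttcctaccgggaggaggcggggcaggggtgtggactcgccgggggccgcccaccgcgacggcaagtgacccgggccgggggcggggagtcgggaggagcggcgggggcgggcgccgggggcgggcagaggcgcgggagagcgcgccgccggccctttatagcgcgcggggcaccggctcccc

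TFPI at chr2:187554436-187554685, minus strand: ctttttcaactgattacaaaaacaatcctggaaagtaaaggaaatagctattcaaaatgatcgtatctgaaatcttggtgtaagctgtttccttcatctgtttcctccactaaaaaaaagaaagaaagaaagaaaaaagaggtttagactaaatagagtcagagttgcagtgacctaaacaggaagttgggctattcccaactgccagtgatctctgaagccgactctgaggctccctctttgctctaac

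TFPI2 at chr7:93890754-93891003, minus strand: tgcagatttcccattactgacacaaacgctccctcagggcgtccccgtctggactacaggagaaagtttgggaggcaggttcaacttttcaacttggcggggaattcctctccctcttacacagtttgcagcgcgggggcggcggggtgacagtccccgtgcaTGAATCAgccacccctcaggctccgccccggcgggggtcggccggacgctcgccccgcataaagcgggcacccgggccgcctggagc

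PLAUR at chr19:43670170-43670419, minus strand: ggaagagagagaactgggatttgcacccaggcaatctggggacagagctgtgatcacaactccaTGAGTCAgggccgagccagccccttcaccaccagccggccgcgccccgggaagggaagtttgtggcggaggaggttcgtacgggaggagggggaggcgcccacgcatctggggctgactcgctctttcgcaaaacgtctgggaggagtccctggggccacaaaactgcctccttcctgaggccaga

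F3 held 2 matches to TGANTCA, starting 223 and 210 bases before its start site. TFPI2 and PLAUR held 1 each, 87 bases before the start in TFPI2, and PROCR, TFPI and both PLAU starts held none. Of all 35116 start regions of this length, 6.57% held a match. The other 3 motifs were searched on both strands. GGGCGG, the GC box, was found in 42.6% of all regions, and F3 held 4 matches, TFPI2 2, PROCR 2, the second PLAU start 3, and TFPI and PLAUR none. CCACCC, a KLF-type box, was found in 31.3% of all regions and in this set once, in TFPI2. AGGAAG, an ETS core, was found in 28.7%, with 2 matches in PROCR and 1 each in TFPI, PLAUR and the second PLAU start. The F3 region was 78.0% G and C and the TFPI region 38.4%, around a median of 58.0% over all regions. These matches describe the letters and do not show binding.

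VWF was the most counted of the 9 genes and the one with the widest range. The gene (chromosome 12, 6058040 to 6233836, minus strand, 52 exons) had 289.6, 636 and 888 CPM, with a mean of 600.4 ± 206 CPM (SD, n = 8). Replicates 2 and 8 were the highest at 888 and 782 CPM. Replicates 5 and 7 were the lowest at 289.6 and 363 CPM, and the other 4 libraries lay between 496 and 712 CPM. The contrast was present in the authors' CQN-normalised values too, where replicate 5 stood 1.02 below and replicate 2 0.68 above the gene mean on the log2 scale. The pseudogene VWFP1 shares sequence with VWF and was not analysed here, so the assignment of shared reads is uncertain.

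THBD and PROCR, the receptors of the protein C pathway, differed between libraries in opposite directions. THBD (chromosome 20, 23026270 to 23030301, minus strand, a single exon) had 68.1 and 75.2 CPM in replicates 2 and 8 and 135 to 185 CPM in the other 6 libraries, with a median of 144 CPM. PROCR (chromosome 20, 33759774 to 33765165, plus strand, 4 exons) had 125 and 146 CPM in the same replicates 2 and 8 and 72.3 to 87.7 CPM in the others. The ranges did not overlap for either gene, as was the case for 63.6% of all detected genes. On the CQN-normalised scale the low THBD values remained, at 6.43 and 6.61 against 7.51 to 8.01. The PROCR values drew closer, at 7.76 and 7.80 against 7.33 to 7.71. THBD lay below PROCR in 8 of 8 libraries by canonical transcript length, by a log2 ratio of -1.12 ± 0.88 (exact sign-flip permutation p = 0.00781, adjusted p = 0.00781, n = 8). The size rested on 2 libraries, at -2.45 in replicate 2 and -2.53 in replicate 8 against -0.96 to -0.23 elsewhere, and without them the mean was -0.67. By merged exons THBD was lower in 7 of 8 libraries, with a mean of -0.79 (exact permutation p = 0.0156, adjusted p = 0.0156, n = 8). On CQN-normalised values the difference was -0.18 ± 0.72 and was no longer called (adjusted p = 0.484 in the same exact permutation test). These values may not be per kilobase, so this difference and the RPKM ratio are not directly comparable. PROCR exceeded F3 in 8 of 8 libraries, by 5.50 ± 0.82 on the log2 RPKM scale (exact permutation p = 0.00781, adjusted p = 0.00781, n = 8).

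**Figure D2:**
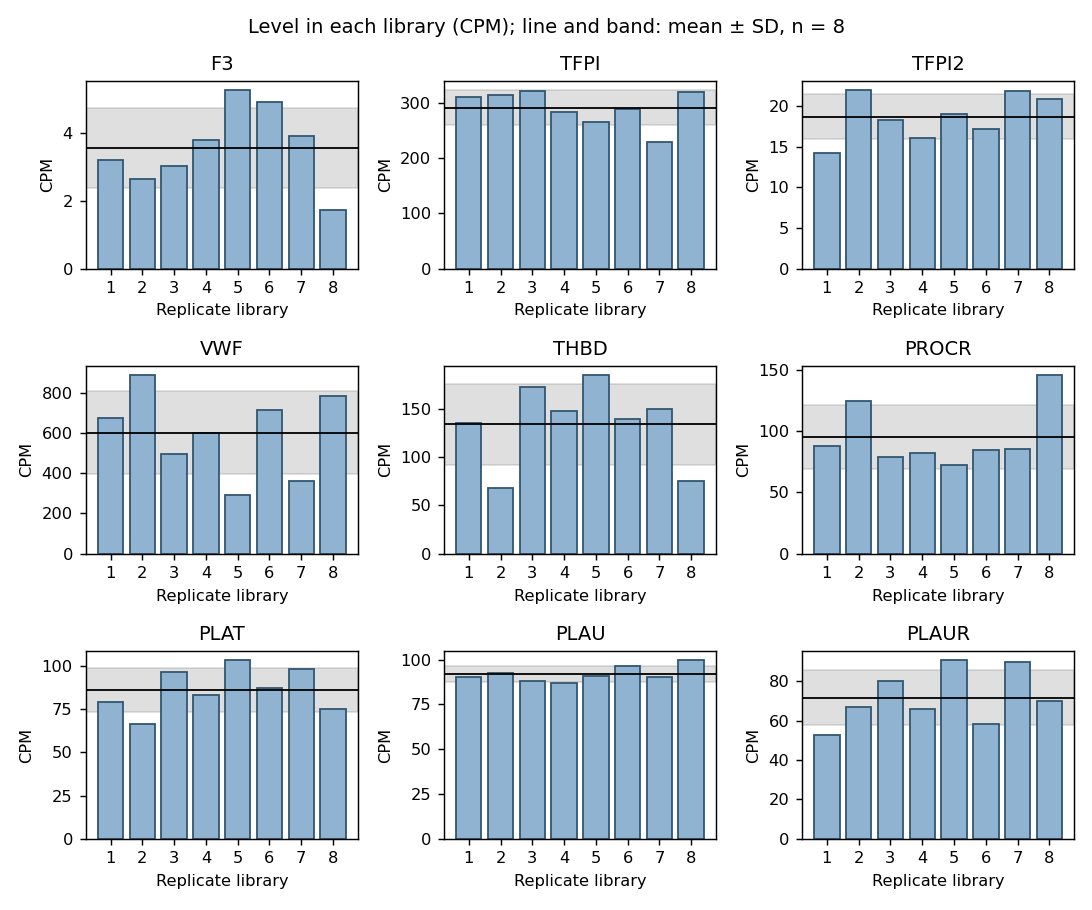
CPM in each of the 8 replicate libraries for the 9 genes, 1 panel per gene with its own axis from 0. Bars are single libraries, the line is the mean and the band 1 SD. VWF and PROCR were highest in replicates 2 and 8, where THBD was lowest, and PLAU was nearly level.

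PLAU was the steadiest of the 9 genes by CPM, and PLAT and PLAUR varied more. PLAU (chromosome 10, 75670862 to 75677258, plus strand, 11 exons), urokinase, had 87.2, 90.6 and 99.6 CPM and a coefficient of variation (CV, SD over mean) of 4.62%. Only 1.62% of the 11980 detected genes had a lower CV, but 31.4% had a lower SD on CQN-normalised values, where PLAU was below the range of the other 6 libraries in replicates 2 and 8 and was higher at a higher length slope by 0.25 (limma adjusted p = 0.0185). On that scale 41.9% of all detected genes were called along the length slope. PLAU overlaps C10orf55 on the opposite strand, which had 1.18 ± 0.183 CPM (SD, n = 8), and whether counting used strand is not given in the sources used here. PLAT (chromosome 8, 42032236 to 42065194, minus strand, 14 exons), tissue-type activator, had 66.7, 85.3 and 103 CPM. It was lowest in replicates 2 and 8 and highest in replicate 5. PLAUR (chromosome 19, 44150247 to 44174498, minus strand, 7 exons), the cell-surface receptor that holds urokinase, had 52.8, 68.3 and 90.8 CPM, with replicates 5, 7 and 3 the highest and replicate 1 the lowest.

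PLAT lay below PLAU in 8 of 8 libraries, by a log2 ratio of RPKM of -0.49 ± 0.25 or 1.40-fold (same exact permutation test, p = 0.00781 and adjusted p = 0.00781, n = 8). The difference by merged exons was 2.83-fold, and on CQN-normalised values it was 1.19-fold and as small as -0.0021 on the log2 scale in 1 library. PLAU lay below its receptor PLAUR by -0.40 ± 0.30 in 8 of 8 libraries with the same exact p, although by as little as -0.0054 in replicate 1. That direction depended on the length used: it turned to 0.97 ± 0.30 with merged exons, since the PLAUR exons merge to 4457 nt against a canonical transcript of 1368 nt. On CQN-normalised values, which may not be per kilobase for either pair, it came to 0.16 ± 0.30. Which of PLAU and PLAUR was higher was therefore not resolved.

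None of the 9 genes was called more variable between libraries than genes of like abundance, as tested by goodness of fit to edgeR's dispersion trend with adjustment over all detected genes. Over all 11980 detected genes 4.66% were called. VWF (adjusted p = 0.152) and THBD (adjusted p = 0.276) were the 2 members with an unadjusted p under 0.05. With the DESeq2 trend, which called 23.6% of all genes, 3 members were called: F3, VWF and THBD. With the length slope as a covariate, which called 4.17% of all genes, VWF (adjusted p = 2.32e-17), THBD (3.36e-05) and PLAUR (3.73e-04) were called. Single libraries mattered for VWF. It was called without replicate 8 (adjusted p = 0.0185, 3.15% of all genes called), whereas without replicate 5 its statistic fell from 17.95 to 8.60 (adjusted p = 0.869). The CV of the 9 genes ran from 4.62% for PLAU to 34.3% for VWF, with a median of 19.4% beside 19.2% over all detected genes. On CQN-normalised values their median SD was 0.32 beside 0.16 over all detected genes.

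**Figure D3:**
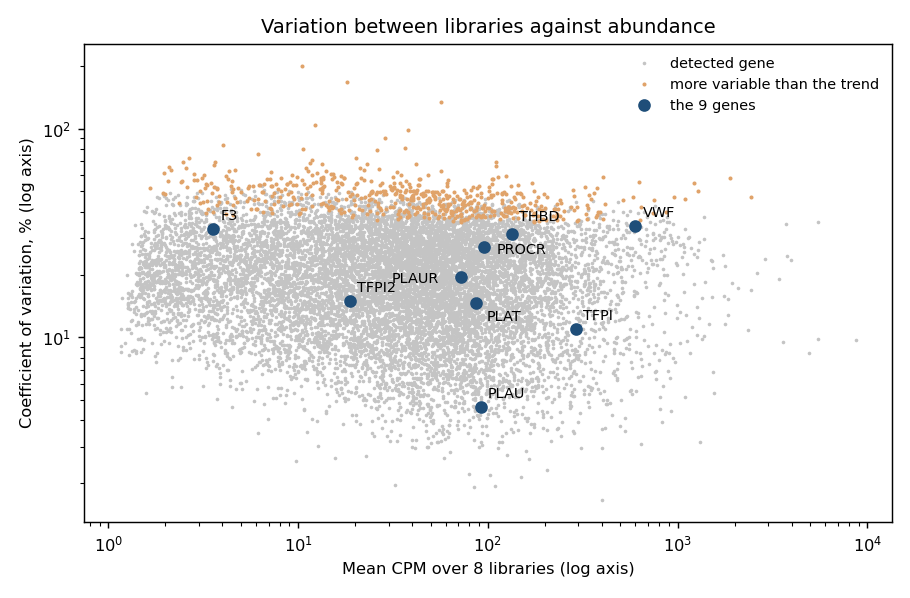
CV over the 8 libraries against mean CPM for all 11980 detected genes, both on log axes, with the 9 genes labelled. Orange points are the 4.66% called more variable than the trend. F3, VWF and THBD lie near the upper part of the cloud and PLAU near its lower edge.

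Since libraries differed along transcript length, the 9 genes were tested along it with edgeR's quasi-likelihood test of each level on the length slope. Of the 9 genes 4 were called, against 72.8% of all 11980 genes (33.3% higher and 39.4% lower at a higher slope). F3 and THBD were higher at a higher slope, by 0.93 and 1.09 on the log2 scale from the lowest to the highest slope (edgeR adjusted p = 0.0261 and 0.00314). PROCR and TFPI2 were lower, by -0.78 and -0.43 (edgeR adjusted p = 2.64e-04 and 0.0107). Canonical transcripts of THBD are long (4040 nt) and those of PROCR short (1349 nt). F3 (2298 nt) and TFPI2 (2207 nt) are close in length but went in opposite directions. The genes not called were VWF, the longest at 8830 nt (-0.44), TFPI at 3859 nt (-0.04) and PLAT at 3062 nt (0.28). PLAU at 2343 nt (-0.10) and PLAUR at 1368 nt (-0.11) were not called either. The part of length in these differences was not tested gene by gene. Leaving out 1 library ended the F3 call without replicate 2 (edgeR adjusted p = 0.0613), replicate 6 (0.0584) or replicate 8 (0.348, at 0.49), and the THBD call without replicate 8 (0.0517). Log2 differences were scaled to the slope range of all 8 libraries, also where libraries were left out. Without replicate 8 they therefore extend beyond the remaining slopes. Without both replicates 2 and 8, where 53.2% of all genes were called, F3 and THBD turned to -0.19 and -0.040. PROCR came to -0.07 (edgeR adjusted p = 0.792), and TFPI2 remained lower by -0.80 (edgeR adjusted p = 0.0224). The slopes left were 0.09 to 0.15 except -0.11 in replicate 7, so this fit rested largely on replicate 7. Of the 6 libraries left, replicate 7 was the highest for TFPI2 (21.8 CPM). On CQN-normalised values THBD was still higher at a higher slope, by 1.25 (limma adjusted p = 0.00331), whereas F3, PROCR and TFPI2 were not called. PLAT (0.47, limma adjusted p = 0.0352) and PLAU (0.25, limma adjusted p = 0.0185) were called on that scale, where 41.9% of all genes were. The direction for TFPI was not settled. TFPI was not called on counts (-0.04). Without replicates 2 and 8 it was higher by 0.78, again scaled to the slope range of all 8 libraries (edgeR adjusted p = 0.00342). Its lowest level was in replicate 7. On CQN-normalised values TFPI was lower by -0.69 (limma adjusted p = 0.0124).

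Replicates 2 and 8 both lay outside the range of the other 6 libraries for 5 of the 9 genes on CPM (F3, VWF, THBD, PROCR and PLAT), against 63.6% of all detected genes. On CQN-normalised values this held for 7 of 9, against 48.6% of all. TFPI showed how the scale matters: its CPM in replicates 2 and 8 (313 and 319) fell within the range of the others, but its CQN-normalised values (9.40 and 9.51) stood above the 8.55 to 8.81 of the rest.

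**Figure D4:**
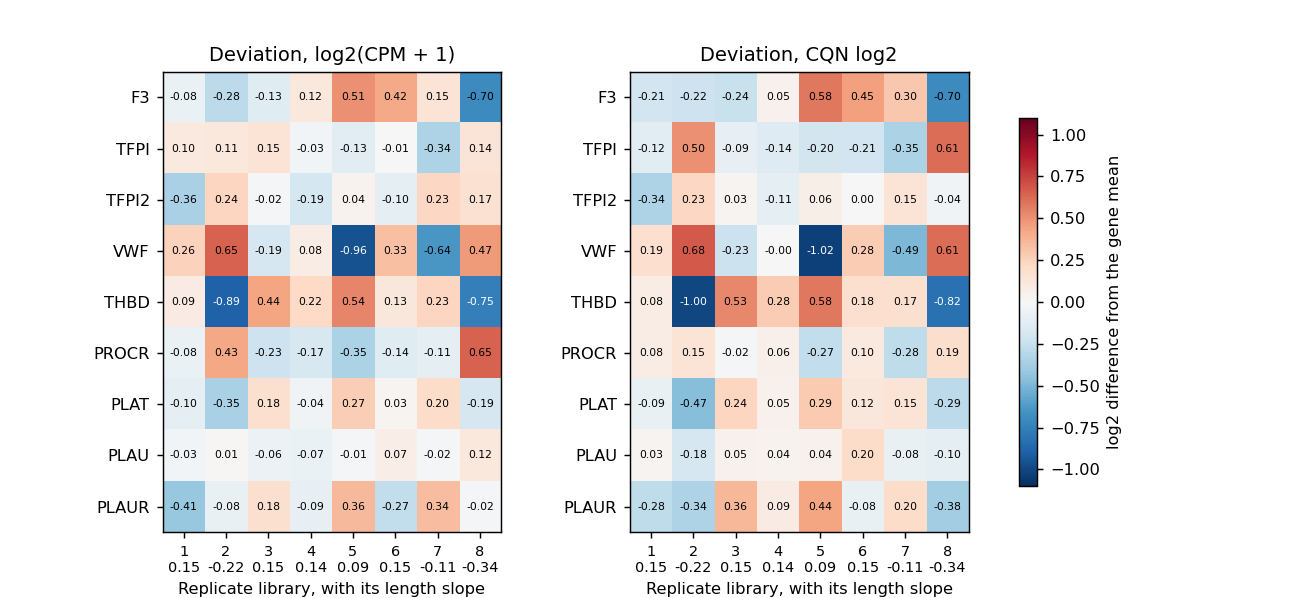
Log2 difference of each library from the gene mean for the 9 genes, on log2(CPM + 1) at left and on CQN-normalised values at right. Columns are replicates 1 to 8 with their length slope beneath. THBD stays low and VWF high in replicates 2 and 8 on both scales, while the PROCR contrast shrinks and a TFPI contrast appears on the CQN scale.

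For each of the 9 genes the 2 detected genes of most similar pattern were taken, by Pearson's r of CQN-normalised values over the 8 libraries. These are the highest of 11980 correlations from the same libraries and only describe likeness. They were DLC1 and LOC729603 for F3 (r = 0.974 and 0.970), ATF7IP2 and GPBP1L1 for TFPI (0.998 and 0.995), and C8orf40 and MTA1 for TFPI2 (0.946 and 0.942). For VWF they were CEPT1 and GOLPH3L (0.996 and 0.992), for THBD FSD1L and PTDSS2 (0.996 and 0.995), and for PROCR LOC374443 and HSPB1 (0.993 and 0.988). PLAT was nearest to RBM28 and HECW2 (0.9896 and 0.989), PLAU to SNORD22 and CD63 (0.961 and 0.953), and PLAUR to CCDC86 and MGLL (0.987 and 0.977). None of the 9 genes was among the 2 genes most like another of the 9.

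A wider list of 48 coagulation and fibrinolysis genes was examined in the same libraries, and 22 were detected. Of the 15 plasma coagulation factors and contact proteins only F8 and F12 were detected, at 3.78 ± 0.736 and 1.49 ± 0.455 CPM (SD, n = 8). F8 encodes factor VIII, the cofactor that von Willebrand factor carries. F9, FGA, PLG and HRG had no counts in any library, where a count of 0 allows up to 0.0665 to 0.0880 CPM per library (3 read pairs). F9 and FGA are named outside the rule, after their values were seen. The receptors F2R and F2RL1, through which thrombin and other clotting proteases signal, had 31.3 and 13.1 RPKM, whereas F2RL2 and F2RL3 were not detected (0.6995 and 0.474 CPM).

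Of the 9 genes listed under anticoagulant proteins and protease inhibitors 4 were detected. ANXA5 had 397 ± 28.9 RPKM, and PROS1, which encodes the protein C cofactor protein S, had 4.32 ± 0.784 RPKM (SD, n = 8). GAS6, in this class only by the list used, had 29.7 ± 8.68 RPKM (SD, n = 8). The undetected members were PROC, PROZ, SERPINC1, SERPIND1 and SERPINA10, all with means of at most 1.16 CPM. Of 4 fibrinolysis inhibitors SERPINE2 was detected (23.9 ± 3.48 RPKM, SD, n = 8), and SERPINB2, SERPINF2 and CPB2 were not. Plasminogen-binding and clearance proteins spanned a wide range, from ENO1 at 1033, S100A10 at 527 and ANXA2 at 373 RPKM to PLGRKT at 21.3 and LRP1 at 0.445 RPKM. The first 3 genes have processed pseudogenes, so shared reads make their levels uncertain. PLG and HRG were the undetected members of that class.

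Of the genes for VWF storage and cleavage and the related multimerins, CD63, MMRN2 and RAB27A were the highest (528, 48.7 and 16.1 RPKM), and SELP, the granule-stored adhesion receptor P-selectin, was the undetected one at 0.0520 CPM. Of the 22 detected genes 1 was called more variable than the trend, MMRN1 (edgeR goodness-of-fit adjusted p = 0.0255), a share near the 4.66% over all detected genes. It had 18.9 and 20.5 CPM in replicates 5 and 7 and 47.8 to 67.7 CPM in the others. The same 2 libraries were the lowest for MMRN2 (153 and 164 CPM) and GGCX (62.9 and 61.2 CPM). They were also the lowest for ANGPT2 and PROS1, but not for the other detected genes of the list. ANGPT2 is named outside the rule, after its values were seen. The share of all detected genes with this pattern was not determined. VKORC1 and GGCX, of the vitamin K cycle, had 134 ± 51.8 and 9.49 ± 0.848 RPKM. Along the length slope 13 of the 22 detected genes were called (59.1%, against 72.8% of all genes), 6 higher and 7 lower at a higher slope.

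**Figure D5:**
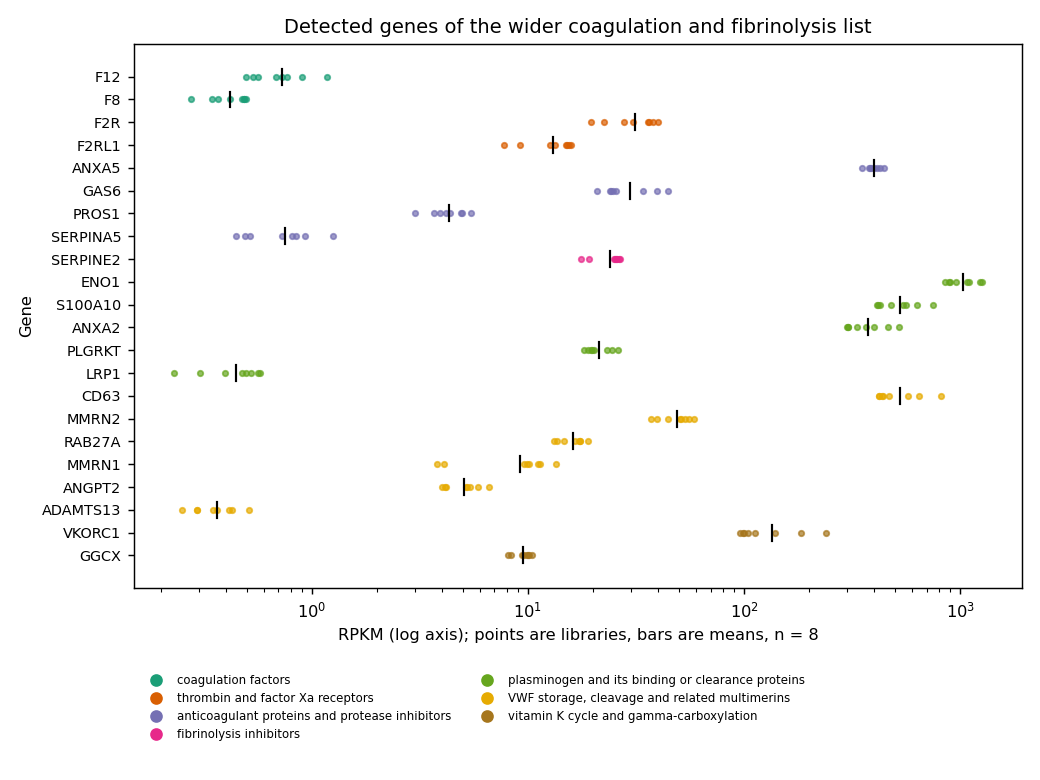
RPKM on a log axis for the 22 detected genes of the wider list, coloured by class. Points are the 8 libraries and bars are means. ENO1 is the highest, and the coagulation factors F12 and F8 lie below 2 RPKM.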

How the data were processed

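The 9 genes, the gene lists and the pairs were chosen with earlier results of these data known. Gene levels of 8 replicate libraries were used; the labels' protocols name the TruSeq RNA Sample Prep Kit v2. The submitters' processing notes name CASAVA 1.9, TopHat2 2.0.6, HTSeq and the build hg19. Per the file headers, the authors deposited raw counts and CQN-normalised values; the latter were read as log2 from the deposited values, and their parameters were not stated. All 186768 deposited counts were even, so counting error was computed on halved counts, called read pairs. The edgeR and DESeq2 tests used the counts as deposited, without halving. Whether their p-values understate counting error for that reason was not tested. All 16 sample columns were used and 0 others were present.

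CPM came from counts with TMM-scaled library sizes (edgeR 4.0.16, R 4.3.3). RPKM used the canonical transcript in GENCODE 44 on GRCh37, and 11605 of 11980 detected genes had a length. Gene coordinates are those of the table, made 1-based. The goodness-of-fit and quasi-likelihood tests (edgeR) ran on all detected genes with Benjamini-Hochberg adjustment at 0.05, and the length slope left out the 9 genes. Both tests were also run on simulated counts in which most genes did not follow the length slope, unlike in these libraries. That run does not show how the tests behave here. Pair ratios used log2(CPM + 0.1) less log2 length and an exact sign-flip test over 256 patterns, written in Python 3.11.15. Wilson intervals came from SciPy 1.17.1. Alternatives used DESeq2 1.42.0, limma 3.58.1, other filters, scalings and lengths, and left-out libraries. Named genes were the 9 members, pair partners, the 3 highest of each class, genes called more variable, undetected genes of classes with 5 or fewer, the 2 genes most alike to each member, overlapping genes and VWFP1. Results of 1 further gene are not reported here.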

Additional observations from a re-analysis of the deposited data

How the results depend on the processing

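With DESeq2 size factors all 9 genes were again detected; the other filters tried were looser and could lose none. Mean CPM moved by less than 1 SD with DESeq2 size factors and with total counts. The number of the 9 genes called more variable than the trend was 0. It was 3 with the DESeq2 trend (F3, VWF and THBD) and 3 with the length slope as covariate (VWF, THBD and PLAUR; 4.17% of all genes), between 0 and 1 when each library was left out (3.15% to 4.09% of all genes), and 1 (VWF) without replicates 2 and 8, an alternative added after seeing the data. All genes called changed from 558 to 2832 with the DESeq2 trend and to 335 (2.75%) without replicates 2 and 8. Along the length slope 4 of the 9 were called. This became 2 without replicates 2 and 8 (TFPI, higher, and TFPI2, lower), where 53.2% of all genes were called. There F3 and THBD reversed to -0.19 and -0.040, scaled to the slope range of all 8 libraries. That fit rested largely on replicate 7. The number called ranged from 2 to 5 when each library was left out (61.8% to 76.2% of all genes). It was lowest without replicate 8 and highest without replicate 7. With CQN-normalised values 4 genes were called (TFPI, THBD, PLAT and PLAU), and 5023 (41.9%) rather than 8717 of all genes. Each pair ratio had 1 sign in 8 of 8 libraries, so leaving libraries out could change neither its direction nor its call. The ratio of PLAU to PLAUR reversed to 0.97 with merged exons and to 0.16 with CQN-normalised values, and that of THBD to PROCR weakened to -0.18 with CQN-normalised values; the other 4 pairs kept direction and call with merged exons, CQN-normalised values and a pseudocount of 1 CPM. CQN-normalised values may not be per kilobase, so their pair differences are not directly comparable with RPKM ratios. Merged exon lengths only change the constant between 2 genes. The cause of the other changes was not tested. Depth limits F3, with 73 to 204 read pairs per library, more than the other 8 genes. No paired comparison of conditions was possible because all libraries belong to 1 group.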
